A study of Mus musculus with 10 samples.

Results

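The white adipocyte and lipid synthesis genes are 36 genes taken by symbol from the 49671 gene IDs counted in mouse whole skin. They comprise 19 adipocyte identity genes, which encode hormones, lipid droplet proteins, lipases and carriers of fat cells, and 17 lipid synthesis genes, which encode the enzymes and regulators that make fatty acids and triglycerides. All 36 matched the annotation and passed the filter on low counts, so they are 36 of the 18060 genes tested. Poly(A) RNA of skin was sequenced from 5 wildtype siblings (WT, NPY +/+) and 5 mice homozygous for the Npytm2Rpa allele (NPYtet, NPY tet/tet) of the mixed B6;129S4 strain, all 22 weeks old. The title of the study describes the allele as overexpressing Npy, the gene of neuropeptide Y. The labels name no drug or other agent for either genotype, no promoter or cell type that drives the allele, no skin site and no stage of the hair cycle. WT libraries were labelled 2 female and 3 male, and NPYtet libraries 3 female and 2 male. Each title carries its own number and a sex, which was read as 1 mouse per library, but no label states this, and p-values measure the spread between these libraries.

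White adipocytes store triglyceride in a single large droplet and secrete hormones such as adiponectin and leptin, and the skin holds a layer of them below the dermis. Fatty acids are made in the cytosol from citrate exported by mitochondria, through acetyl-CoA and malonyl-CoA, and are then elongated, desaturated and joined to glycerol. In the skin that pathway also runs in sebaceous glands and keratinocytes, and the dermal fat layer is known to thicken while hair follicles grow.

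Promoters were examined for what the members share that their naming did not use. RefSeq's table (GRCm38.p6) held promoters, 250 bases before to 50 after a start, for 27 members, 14 of identity and 13 of lipid synthesis. The 4 promoters shown are of 2 identity genes, Adipoq and Retn, and 2 lipid synthesis genes, Fasn and Slc25a1, chosen to show a promoter with and without the CCAAT pattern. Each is the 250 bases before the start, written 5′ to 3′ on the gene's strand, with CCAAT or TTGCNNAA on either strand in capitals. Adipoq lies at chr16:23146286-23146535 (forward strand), Retn at chr8:3655520-3655769 (forward), Fasn at chr11:120824548-120824797 (reverse) and Slc25a1 at chr16:17928220-17928469 (reverse).
Adipoq: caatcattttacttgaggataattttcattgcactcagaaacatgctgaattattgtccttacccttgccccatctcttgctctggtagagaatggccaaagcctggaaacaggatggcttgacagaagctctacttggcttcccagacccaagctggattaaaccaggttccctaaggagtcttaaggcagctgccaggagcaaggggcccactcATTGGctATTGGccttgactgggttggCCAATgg
Retn: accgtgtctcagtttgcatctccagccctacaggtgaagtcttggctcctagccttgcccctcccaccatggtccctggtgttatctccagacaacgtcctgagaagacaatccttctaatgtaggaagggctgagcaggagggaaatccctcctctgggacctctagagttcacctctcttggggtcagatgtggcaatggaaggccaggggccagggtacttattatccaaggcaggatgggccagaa
Fasn: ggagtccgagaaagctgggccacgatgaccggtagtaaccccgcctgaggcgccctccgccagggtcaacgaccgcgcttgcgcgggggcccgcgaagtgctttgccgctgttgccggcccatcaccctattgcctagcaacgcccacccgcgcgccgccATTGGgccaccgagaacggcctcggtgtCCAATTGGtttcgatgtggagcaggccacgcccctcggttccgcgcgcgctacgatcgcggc
Slc25a1: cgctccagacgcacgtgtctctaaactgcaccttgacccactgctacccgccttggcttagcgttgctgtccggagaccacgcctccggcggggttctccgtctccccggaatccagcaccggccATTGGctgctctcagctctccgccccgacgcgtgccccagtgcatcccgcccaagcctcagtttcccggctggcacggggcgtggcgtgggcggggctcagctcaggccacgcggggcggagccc
Several members have more than 1 promoter in the table, 18 for lipid synthesis and 20 for identity, and each pattern was searched on both strands. CCAAT was in 11 of 18 lipid synthesis promoters and 4 of 20 identity promoters, against 33.8% of all 32851 promoters in the table. By gene, these were 10 of 13 lipid synthesis genes and 3 of 14 identity genes. The 10 were Thrsp, Acacb, Fasn, Elovl5, Me1, Mlxipl, Srebf1, Gpam, Slc25a1 and Pnpla3, and the 3 were Adipoq, Plin4 and Pparg. TTGCNNAA, a form of the C/EBP pattern, was in 4 of 20 identity promoters and 0 of 18 lipid synthesis promoters, against 9.56% of promoters. By gene, these were 4 of 14 identity genes (Lep, Plin1, Cidec and Pparg) and 0 of 13 lipid synthesis genes. CACGTG, an E-box, was in 3 of 18 lipid synthesis promoters and 1 of 20 identity promoters, against 6.02%. By gene, these were 3 of 13 lipid synthesis genes (Elovl5, Mlxipl and Slc25a1) and 1 of 14 identity genes (Lipe). TCACNCCAC, a sterol response element, was in Mlxipl alone (1.05% of promoters), and a nuclear receptor direct repeat in none of the 27 (0.338%). In Fasn the CCAAT at 62 bases before the start overlaps the match on the opposite strand at 59. These are matches of letters, and binding was not measured.

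Library totals ran from 23209405 to 53357695 reads, and 3 libraries stood apart from the rest. NPYtet replicate 5 had 9.26% mitochondrial reads (1.86% to 3.03% in the others), and it and WT replicate 2 had the fewest genes with a read (19953 and 21144) and the lowest scaling factors (0.652 and 0.696). NPYtet replicate 1 is labelled female but held 2 reads of Xist, which the inactive X chromosome transcribes, and 1513 reads of the Y-linked gene Ddx3y; it is called here the library labelled female, and all values by sex count it as female. Npy itself was at 1.57 ± 1.03 CPM (counts scaled to the library's effective total) on average in WT and 224 ± 156 CPM among NPYtet libraries (SD, n = 5 each), and every NPYtet library was above every WT library. Both genotypes expressed the defining markers of fat: the fewest reads of Adipoq, Plin1 and Cidec in any library were 4194, 2762 and 4194. Ucp1, the defining gene of thermogenic fat, had at most 7 reads and 0 in 3 libraries, and a count of 0 allows up to 3 reads.

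Levels between genes are compared per kilobase of annotated exon (CPM per kb, mean over 10 libraries). Cfd, which encodes the complement protease adipsin, was highest at 995 ± 455, followed by Car3, a carbonic anhydrase abundant in fat and muscle, at 537 ± 345. Scd1, the main stearoyl-CoA desaturase of skin, was the highest lipid synthesis gene at 383 ± 194 CPM per kb. Dgat2, Fabp4, Cidec and Adipoq followed, between 188 and 213, with SDs from 96.0 to 176, so these neighbours did not differ beyond their spread. The lowest were Acvr1c, a receptor of the activin family, at 1.08, Acaca at 3.14, Mlxipl at 3.96 and Gpam at 4.15. Summed over the list, identity genes took 2425 to 7520 CPM in WT and 4130 to 11013 CPM in NPYtet, and lipid synthesis genes 2724 to 5676 CPM in WT and 5373 to 8149 CPM in NPYtet.

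**Figure D1:**
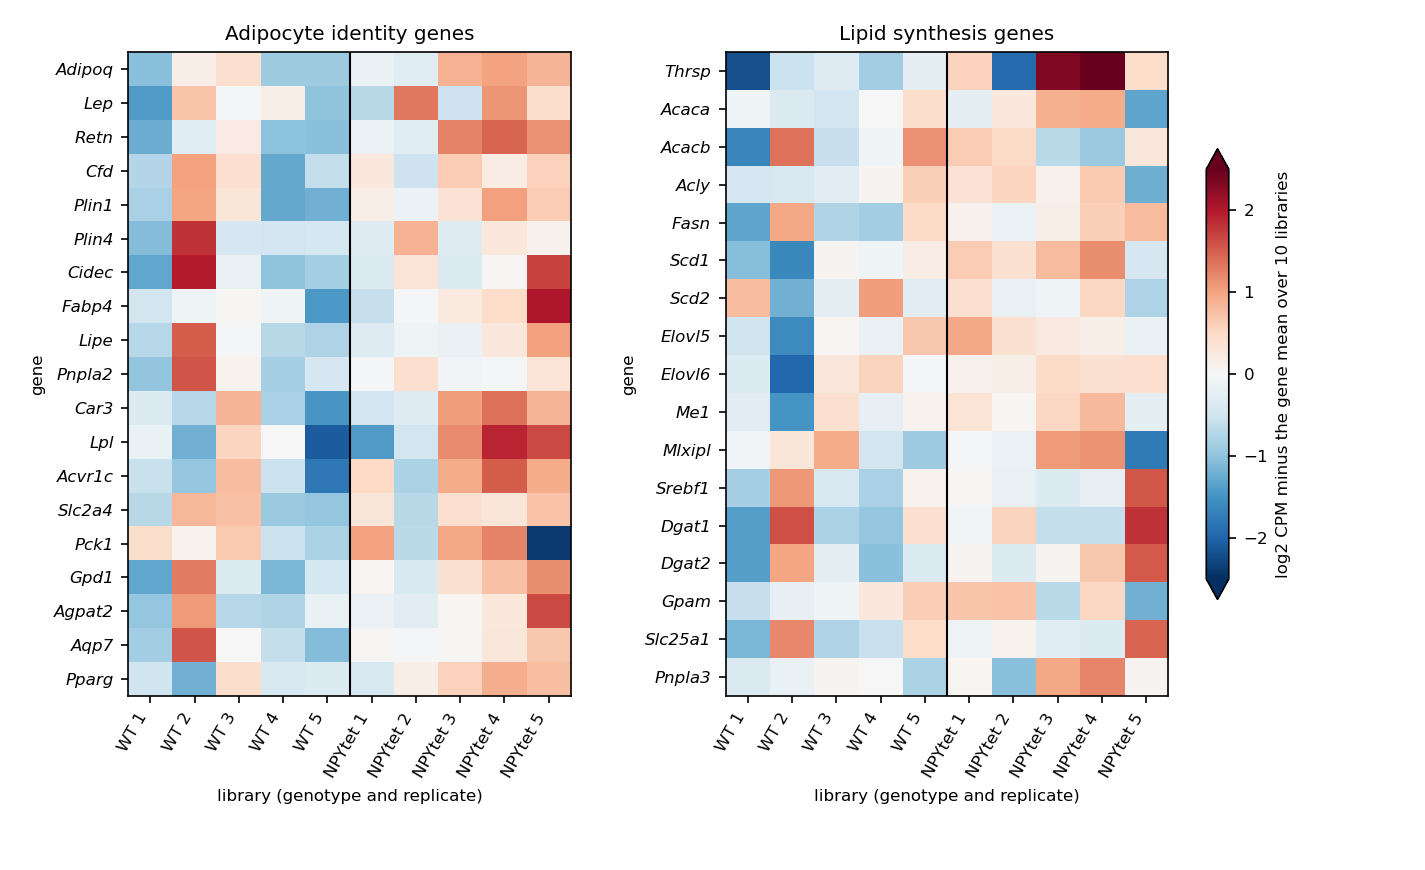
Log2 CPM of each of the 36 genes minus its own mean over the 10 libraries (colour scale), with 19 adipocyte identity genes on the left, 17 lipid synthesis genes on the right, and a black line between the 5 WT and 5 NPYtet libraries. WT replicate 2 is high for most identity genes and low for Scd1, Elovl5, Elovl6 and Me1, and NPYtet replicates 3 and 4 are the highest 2 libraries for Thrsp.

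Fold changes between the genotypes were mostly positive in both lists, and none passed the test. Log2 fold changes, written below as log2 differences of NPYtet minus WT with sex in the fit, were positive for 18 of 19 identity genes (median 0.74, range -0.20 to 1.34) and 15 of 17 lipid synthesis genes (median 0.43, range -0.34 to 1.66), beside 48.8% of all genes tested with a median of -0.01. Of the 36 members, 0 passed an adjusted p under 0.05 in edgeR (adjusted p = 0.999 each), and 0 passed in DESeq2 or limma voom. Of all genes 1, Npy, passed in edgeR, or 0.00554%, and 35 in DESeq2, or 0.194%. Without the filter on low counts 2 members passed, Retn (edgeR adjusted p = 0.0232) and Thrsp (adjusted p = 0.0174), beside 1.24% of 32857 genes. At an unadjusted p under 0.05, 5 of 36 were higher in NPYtet (13.9%), against 1.46% of all genes, and 0 were lower, against 2.14%. All 5 were identity genes: Retn, Acvr1c, Lpl, Fabp4 and Pparg. That split between the lists depended on the method. In DESeq2, 7 identity and 2 lipid synthesis genes were higher at that p (2.22% of all genes). In limma voom these were 9 and 7 (1.85%). With an offset for GC content in each library, chosen after seeing the data, they were 5 and 7 (2.17%). The WT and NPYtet libraries overlapped in every member, while 0.305% of all genes had groups that did not overlap and 0.0886% had every NPYtet library above every WT library. In 5 members the sign of the fit, which adjusts for sex, ran against that of the mean CPM: Plin4, Pnpla2 and Acacb had positive values with lower NPYtet means, and Pck1 and Mlxipl negative values with higher NPYtet means. In whole skin, more fat cells and more RNA per fat cell cannot be told apart. When the 3 libraries that stood apart were left out, the medians were 0.72 and 0.54, with 19 of 19 and 16 of 17 positive, and 11 identity and 2 lipid synthesis genes had an unadjusted p under 0.05 (higher in 1.86% of all genes). The count of 5 members with an unadjusted p under 0.05 depended on single libraries, given here with the share of all genes higher. It was 1 without WT replicate 1 (0.732%) or NPYtet replicate 4 (1.06%), and 2 without NPYtet replicate 3 (1.16%) or 5 (0.897%). It was 3 without WT replicate 4 (1.52%) or 5 (0.830%), and 8 without WT replicate 3 (2.59%). Without NPYtet replicate 1 it was 7, all identity genes (1.80%). It was 11 without NPYtet replicate 2 (3.55%) and 14 without WT replicate 2 (1.46%).

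**Figure D2:**
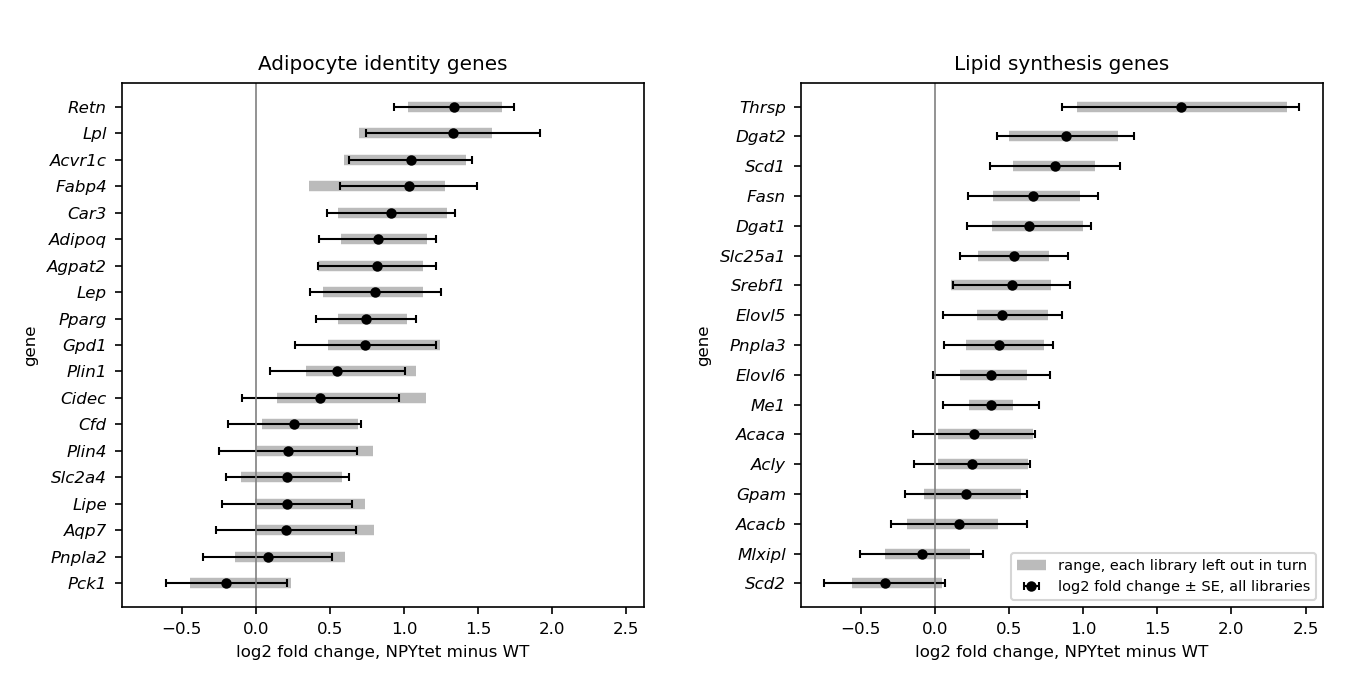
Log2 fold change of each gene, NPYtet minus WT, with its standard error (points and lines) and the range over fits that leave out each of the 10 libraries in turn (grey bars). Retn at 1.34 and Thrsp at 1.66 are the highest of their lists, and the grey bars of Retn, Lpl, Acvr1c and Fabp4 reach their low ends without NPYtet replicate 5.

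The hormone genes were led by Retn, which encodes resistin, a secreted product of mouse fat cells. Retn (ENSMUSG00000012705, chromosome 8 at 3655770 to 3660110, forward strand) was at 30.6, 58.6, 82.7, 35.5 and 35.0 CPM in WT replicates 1 to 5, and at 64.8, 58.2, 169, 197 and 159 CPM in NPYtet replicates 1 to 5. NPYtet replicates 3, 4 and 5 were above every WT library, while NPYtet replicates 1 and 2 lay among the WT values. The WT mean of 48.5 ± 22.1 CPM and an NPYtet mean of 129.6 ± 63.8 CPM (SD, n = 5 each) gave a log2 difference of 1.34 (SE 0.40), with an unadjusted p = 0.00501 in edgeR. Adipoq, the gene of adiponectin (ENSMUSG00000022878, chromosome 16 at 23146536 to 23158028, forward strand), was at 112, 257, 302, 123 and 124 CPM in WT replicates 1 to 5, and at 205, 186, 420.0, 458 and 415 CPM in NPYtet replicates 1 to 5. The same 3 NPYtet libraries were above all WT libraries, and all 5 were above the WT median. Adipoq had a log2 difference of 0.82 (SE 0.39) from a WT mean of 184 ± 89.0 CPM and an NPYtet mean of 337 ± 130.1 CPM (SD, n = 5 each). Lep, the gene of leptin, was at 44.5, 193, 116, 133 and 59.0 CPM in WT replicates 1 to 5, and at 73.9, 296, 83.0, 255 and 161 CPM in NPYtet replicates 1 to 5. Lep was highest in NPYtet replicates 2 and 4 and overlapped widely elsewhere, with a log2 difference of 0.81 (SE 0.44). Cfd ranged over 342 to 1654 CPM in WT and 578 to 1285 CPM in NPYtet, with WT replicate 2 the highest of all, and its log2 difference was 0.26 (SE 0.45), or 0.04 without WT replicate 1 and 0.69 without WT replicate 2.

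None of the genes that act on the lipid droplet had an unadjusted p under 0.05. Cidec, which fuses droplets into a single large one, was at 108, 1032, 234, 132 and 149 CPM in WT replicates 1 to 5, and at 208, 332, 210.4, 270.0 and 861 CPM in NPYtet replicates 1 to 5. WT replicate 2 and NPYtet replicate 5 stood above the other libraries of their group, and the log2 difference was 0.43 (SE 0.53), or 0.14 without NPYtet replicate 5 and 1.15 without WT replicate 2. Plin4, a droplet coat protein, was at 109, 815, 173, 167 and 172 CPM in WT replicates 1 to 5, and at 186, 424, 185, 279.8 and 251 CPM in NPYtet replicates 1 to 5. WT replicate 2 again exceeded all others, and Plin4 had a log2 difference of 0.22 (SE 0.47), or 0.00613 without WT replicate 1 and 0.79 without WT replicate 2. Plin1, the perilipin that guards the droplet from lipases, ranged over 78.1 to 375 CPM in WT and 171 to 385 CPM in NPYtet and had a log2 difference of 0.55 (SE 0.46). The lipases Lipe, hormone-sensitive lipase, and Pnpla2, adipose triglyceride lipase, were at log2 differences of 0.21 (SE 0.44) and 0.08 (SE 0.43). Pnpla2 spanned 117 to 686 CPM in WT and 219 to 305 CPM in NPYtet, and all 5 NPYtet libraries were above the WT median. Aqp7, the glycerol channel of fat cells, had a log2 difference of 0.20 (SE 0.47) and spanned 5.34 to 33.6 CPM in WT and 10.98 to 17.9 CPM in NPYtet.

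Uptake and carrier genes held 2 of the 5 members with an unadjusted p under 0.05. Lpl, the lipoprotein lipase that frees fatty acids at the capillary wall (ENSMUSG00000015568, chromosome 8 at 68880491 to 68907448, forward strand), was at 345, 168, 562, 391 and 92.0 CPM in WT replicates 1 to 5, and at 146, 283, 878, 1456 and 1217 CPM in NPYtet replicates 1 to 5. NPYtet replicates 3, 4 and 5 were above all WT libraries, and NPYtet replicate 1 was below 4 of 5. Lpl had a log2 difference of 1.33 (SE 0.59, unadjusted p = 0.0394), and 0.70 without NPYtet replicate 5. Fabp4, the fatty acid carrier of fat cells (ENSMUSG00000062515, chromosome 3 at 10204088 to 10208576, reverse strand), was at 559, 702, 784, 714 and 283 CPM in WT replicates 1 to 5, and at 513, 753, 906, 1057 and 3096 CPM in NPYtet replicates 1 to 5. NPYtet replicate 5 was the highest by far, and the other 4 lay between 513 and 1057 CPM. Fabp4 had a log2 difference of 1.03 (SE 0.46, unadjusted p = 0.0422) and 0.36 without NPYtet replicate 5. Slc2a4, the insulin-regulated glucose transporter that muscle also makes, spanned 33.0 to 114 CPM in WT and 39.96 to 105 CPM in NPYtet with a log2 difference of 0.21 (SE 0.42). Car3 was at 995, 772, 2272, 721 and 465 CPM in WT replicates 1 to 5, and at 910.3, 1016, 2633, 3301 and 2297 CPM in NPYtet replicates 1 to 5. Car3 was highest in NPYtet replicates 3, 4 and 5 and WT replicate 3, and had a log2 difference of 0.91 (SE 0.43).

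Of the remaining identity genes, Pparg, the transcription factor that sets the fat cell programme, was at 17.6, 10.9, 33.5, 19.2 and 19.7 CPM in WT replicates 1 to 5, and at 18.9, 27.5, 37.0, 46.7 and 42.0 CPM in NPYtet replicates 1 to 5. The same NPYtet replicates 3, 4 and 5 exceeded every WT library, and Pparg had a log2 difference of 0.74 (SE 0.34, unadjusted p = 0.0460). Acvr1c, the receptor also called ALK7, was at 5.45, 4.07, 13.6, 5.51 and 2.32 CPM in WT replicates 1 to 5, and at 11.3, 4.64, 15.3, 22.7 and 15.2 CPM in NPYtet replicates 1 to 5. It had a log2 difference of 1.04 (SE 0.42, unadjusted p = 0.0248), and 0.59 without NPYtet replicate 5. Gpd1, which makes glycerol phosphate from a glycolytic intermediate, spanned 31.0 to 187 CPM in WT and 59.1 to 172 CPM in NPYtet with a log2 difference of 0.74 (SE 0.48). Pck1, the PEPCK enzyme of glyceroneogenesis, was at 47.8, 37.7, 55.4, 24.5 and 20.4 CPM in WT replicates 1 to 5, and at 70.7, 22.0, 68.9, 83.1 and 6.75 CPM in NPYtet replicates 1 to 5. NPYtet replicate 5, which was high for most identity genes, was the lowest of all 10 for Pck1, and Pck1 was the single identity gene with a negative log2 difference, -0.20 (SE 0.41), though its mean was higher in NPYtet (50.3 ± 33.6 CPM against 37.2 ± 14.9 CPM, SD, n = 5 each). It was positive in 4 of 22 alternatives, at 0.44 without the sex term. Agpat2, which adds a fatty acid to the glycerol backbone, spanned 23.1 to 93.2 CPM in WT and 36.9 to 139.6 CPM in NPYtet with a log2 difference of 0.82 (SE 0.40), and NPYtet replicate 5 gave its highest value.

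**Figure D3:**
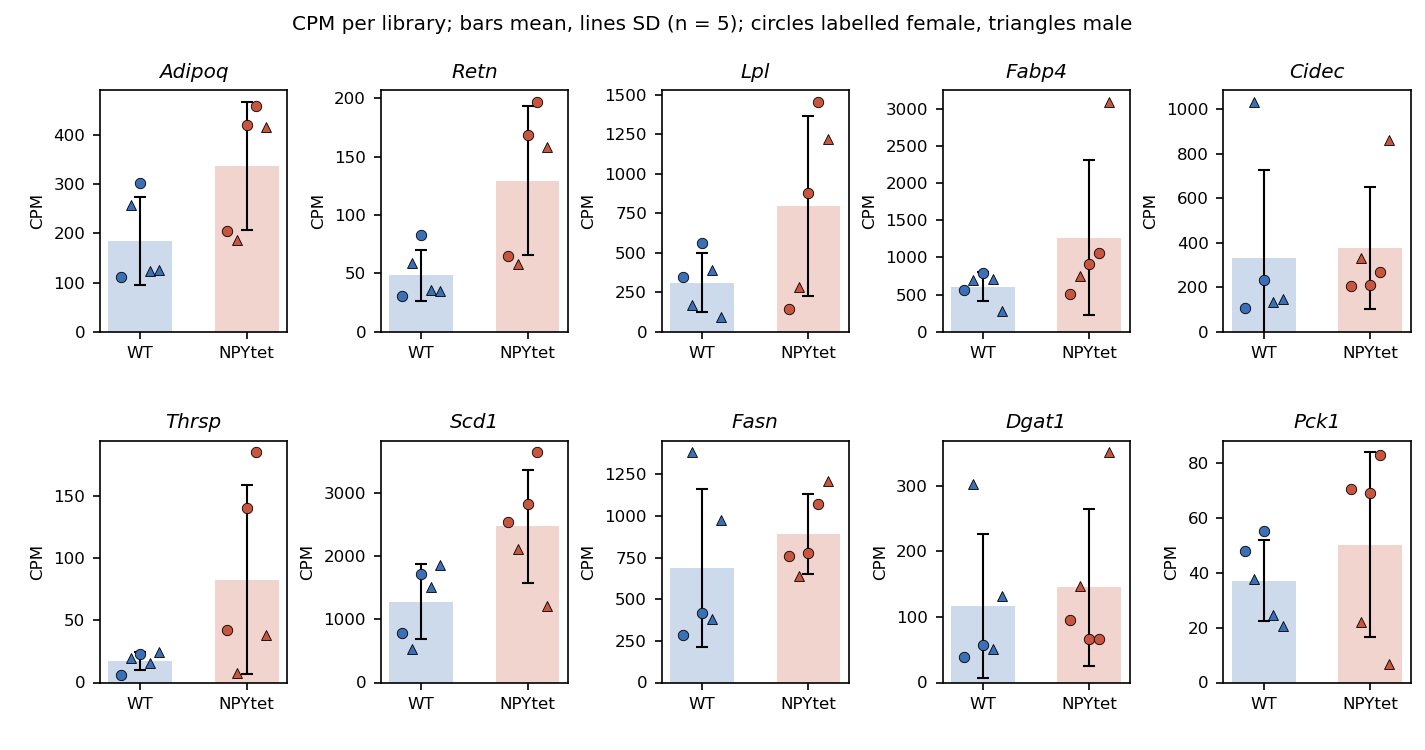
CPM in each library for 5 identity genes (top) and 4 lipid synthesis genes with Pck1 (bottom), WT in blue and NPYtet in red, bars for the mean and lines for the SD (n = 5 each, drawn from 0 upwards), circles for libraries labelled female and triangles for male. For Adipoq, Retn and Lpl 3 NPYtet libraries lie above every WT library, and for Cidec and Dgat1 WT replicate 2 and NPYtet replicate 5 stand alone at the top.

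Among lipid synthesis regulators, Thrsp, the nuclear protein Spot 14 that follows the lipogenic state of fat and liver (ENSMUSG00000035686, chromosome 7 at 97412938 to 97417730, reverse strand), was at 6.12, 19.5, 22.6, 15.4 and 24.2 CPM in WT replicates 1 to 5, and at 42.0, 7.38, 140.3, 185 and 38.5 CPM in NPYtet replicates 1 to 5. NPYtet replicates 1, 3, 4 and 5 were above every WT library, and NPYtet replicate 2 was below 4 of 5. The WT mean of 17.6 ± 7.23 CPM and an NPYtet mean of 82.6 ± 75.9 CPM (SD, n = 5 each) gave a log2 difference of 1.66 (SE 0.80), the highest value of the 36, with an unadjusted p = 0.0599 in edgeR. It was 0.96 without WT replicate 1 and 2.38 without NPYtet replicate 2. Srebf1, the sterol-regulated activator of lipogenic genes, spanned 124 to 465.6 CPM in WT and 172 to 643 CPM in NPYtet and had a log2 difference of 0.52 (SE 0.40), or 0.11 without NPYtet replicate 5 and 0.78 without WT replicate 2. Mlxipl, the glucose-responsive factor ChREBP, spanned 9.97 to 35.4 CPM in WT and 5.49 to 40.4 CPM in NPYtet and had a log2 difference of -0.09 (SE 0.42), near 0 and with the opposite sign in 9 of 23 alternatives.

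Genes on the path from citrate to fatty acid each had an adjusted p of 0.999 in edgeR. Slc25a1, the mitochondrial citrate exporter, was at 67.5, 346, 89.6, 102 and 207 CPM in WT replicates 1 to 5, and at 137, 159, 122, 119 and 412 CPM in NPYtet replicates 1 to 5. NPYtet replicate 5 and WT replicate 2 were the highest 2, and Slc25a1 had a log2 difference of 0.53 (SE 0.37). Acly, which splits citrate into acetyl-CoA, spanned 213 to 427 CPM in WT and 122 to 444 CPM in NPYtet with a log2 difference of 0.25 (SE 0.39), and NPYtet replicate 5 was its lowest library. Me1, the malic enzyme that supplies NADPH, had a log2 difference of 0.38 (SE 0.32). The carboxylases Acaca and Acacb, which form malonyl-CoA in the cytosol and at mitochondria, had log2 differences of 0.26 (SE 0.41) and 0.16 (SE 0.46). Acacb averaged 158 ± 117 CPM in WT libraries and 125 ± 54.4 CPM over NPYtet (SD, n = 5 each), and its value was -0.33 without the sex term. Leaving out NPYtet replicate 5 gave 0.66 for Acaca and 0.62 for Acly, while Acaca was 0.0202 without WT replicate 3 and Acly 0.0230 without NPYtet replicate 2. Fasn, fatty acid synthase (ENSMUSG00000025153, chromosome 11 at 120805846 to 120824547, reverse strand), was at 284, 1384, 417, 383 and 978 CPM in WT replicates 1 to 5, and at 760.5, 638, 777, 1071 and 1211 CPM in NPYtet replicates 1 to 5. All 5 NPYtet libraries were above the WT median and none above the WT maximum, and Fasn had a log2 difference of 0.66 (SE 0.44) from a WT mean of 689 ± 474 CPM and an NPYtet mean of 891 ± 239 CPM (SD, n = 5 each).

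Scd1 (ENSMUSG00000037071, chromosome 19 at 44394455 to 44407879, reverse strand) was at 775, 537, 1716, 1514 and 1852 CPM in WT replicates 1 to 5, and at 2541, 2112, 2824, 3637 and 1213 CPM in NPYtet replicates 1 to 5. NPYtet replicates 1 to 4 were all above the highest WT library, and NPYtet replicate 5 was below 3 WT libraries. Scd1 had a log2 difference of 0.81 (SE 0.44) from a WT mean of 1278 ± 587 CPM and an NPYtet mean of 2466 ± 894 CPM (SD, n = 5 each), with an unadjusted p = 0.0850 in edgeR. Its neighbour on chromosome 19, Scd2, a desaturase of brain and early life, spanned 73.2 to 345 CPM in WT and 98.8 to 239 CPM in NPYtet and had a log2 difference of -0.34 (SE 0.41), the lowest value of the 36. The elongases Elovl5 and Elovl6, which lengthen polyunsaturated and saturated chains, had log2 differences of 0.45 (SE 0.40) and 0.38 (SE 0.39). Elovl6 was at 86.1 CPM in WT replicate 2 and between 264 and 497 CPM in the other 9 libraries.

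In triglyceride assembly, Dgat2, which joins the last fatty acid to diacylglycerol, was at 213, 1092, 473, 269 and 428 CPM in WT replicates 1 to 5, and at 581, 436, 581, 875 and 1606 CPM in NPYtet replicates 1 to 5. All 5 NPYtet libraries were above the WT median, NPYtet replicate 5 was the highest, and Dgat2 had a log2 difference of 0.88 (SE 0.46). Dgat1, the other acyltransferase of that step (ENSMUSG00000022555, chromosome 15 at 76502015 to 76511953, reverse strand), was at 38.4, 303, 58.0, 51.4 and 133 CPM in WT replicates 1 to 5, and at 95.2, 147, 66.1, 65.9 and 352 CPM in NPYtet replicates 1 to 5. NPYtet replicate 5 and WT replicate 2 were the highest 2, and Dgat1 had a log2 difference of 0.64 (SE 0.42). Gpam, which starts glycerolipid synthesis at mitochondria, spanned 16.9 to 38.6 CPM in WT and 10.98 to 41.3 CPM in NPYtet with a log2 difference of 0.21 (SE 0.41). Pnpla3, a droplet protein induced by feeding, spanned 34.4 to 61.9 CPM in WT and 28.6 to 139 CPM in NPYtet with a log2 difference of 0.43 (SE 0.37). NPYtet replicates 3 and 4 were above the WT maximum at 116 and 139 CPM, and NPYtet replicate 5, at 62.0 CPM, was about level with it.

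Identity and synthesis were separated within each library by list scores, the mean over a list of log2 CPM after subtracting each gene's mean. The identity score was -0.78, 0.53, 0.19, -0.69 and -0.93 in WT replicates 1 to 5, and -0.15, -0.10, 0.39, 0.75 and 0.78 in NPYtet replicates 1 to 5. WT replicates 2 and 3 and NPYtet replicates 3, 4 and 5 were above 0, so the groups overlapped. The lipid synthesis score was -0.75, -0.12, -0.18, -0.25 and 0.15 in WT replicates 1 to 5, and 0.26, -0.03, 0.29, 0.55 and 0.08 in NPYtet replicates 1 to 5. Only NPYtet replicate 2 of its group was below 0, and only WT replicate 5 of its group was above 0. The lipid synthesis score minus the identity score was 0.02, -0.65, -0.37, 0.44 and 1.08 in WT, and 0.41, 0.08, -0.11, -0.20 and -0.71 in NPYtet. The difference was highest in WT replicate 5, where identity was at its lowest, and lowest in NPYtet replicate 5 and WT replicate 2. Across the 10 libraries the scores had a Pearson r of 0.52 (Spearman rho 0.39) with each other, a description of libraries that share depth, composition and scaling.

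Single lipid synthesis genes covered a wide range of likeness to the identity list (Pearson r of log2 CPM with the identity score over 10 libraries, a description). Dgat2 was most like it at 0.86, followed by Fasn at 0.61, Thrsp at 0.61 and Pnpla3 at 0.60. Scd1 (0.13) and Me1 (0.04) were near 0. Acly, Gpam and Scd2 were negative at -0.32, -0.37 and -0.52. Among identity genes, each set against the other 18, Plin1 (0.95) and Adipoq (0.94) were highest, and Pck1 was at -0.04. Against the keratinocyte score, Acacb and Fasn were at 0.84 and 0.80, and Scd2 was at -0.72. With the identity score as a covariate, the genotype median of lipid synthesis genes was 0.33, with 15 of 17 positive and 0 passing in edgeR.

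Hair growth was read from 31 matched genes of the hair shaft and inner root sheath, which growing follicles make. They took 3.59, 2.23, 0.0722, 2.52 and 0.937 percent of reads in WT replicates 1 to 5, and 0.0282, 0.197, 0.0551, 0.0453 and 1.16 percent in NPYtet replicates 1 to 5. The share of WT replicate 3 was thus as low as that of most NPYtet libraries, while NPYtet replicate 5 exceeded 2 WT libraries. The hair score, formed like the other scores, was 3.57, 3.33, -2.60, 3.24 and 1.99 in WT and -5.38, -0.15, -2.83, -3.96 and 2.79 in NPYtet. Against it, the identity score had r = -0.34 (rho -0.22) over 10 libraries, and the lipid synthesis score r = -0.66 (rho -0.78). Without the 2 libraries farthest from the median hair score, NPYtet replicates 1 and 4, these were -0.31 and -0.46. Within WT they were -0.35 and -0.27, and within NPYtet 0.36 and -0.69, each over 5 libraries. Scd1 (r = -0.80, rho -0.90), Me1 (r = -0.75, rho -0.89), Thrsp (r = -0.63, rho -0.76) and Elovl5 (r = -0.61, rho -0.78) were the most negative lipid synthesis genes. Slc25a1 (r = 0.31) and Dgat1 (r = 0.29) were the most positive. Some identity genes were as negative: Pck1 (r = -0.66, rho -0.61), Acvr1c (r = -0.64, rho -0.56) and Retn (r = -0.54, rho -0.66) were the lowest of that list. Its most positive were Cidec (r = 0.15) and Agpat2 (r = 0.13). Hair and genotype varied together: all 31 hair genes had negative genotype values (median -4.08), with 0 passing in edgeR and 9 at an unadjusted p under 0.05.

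**Figure D4:**
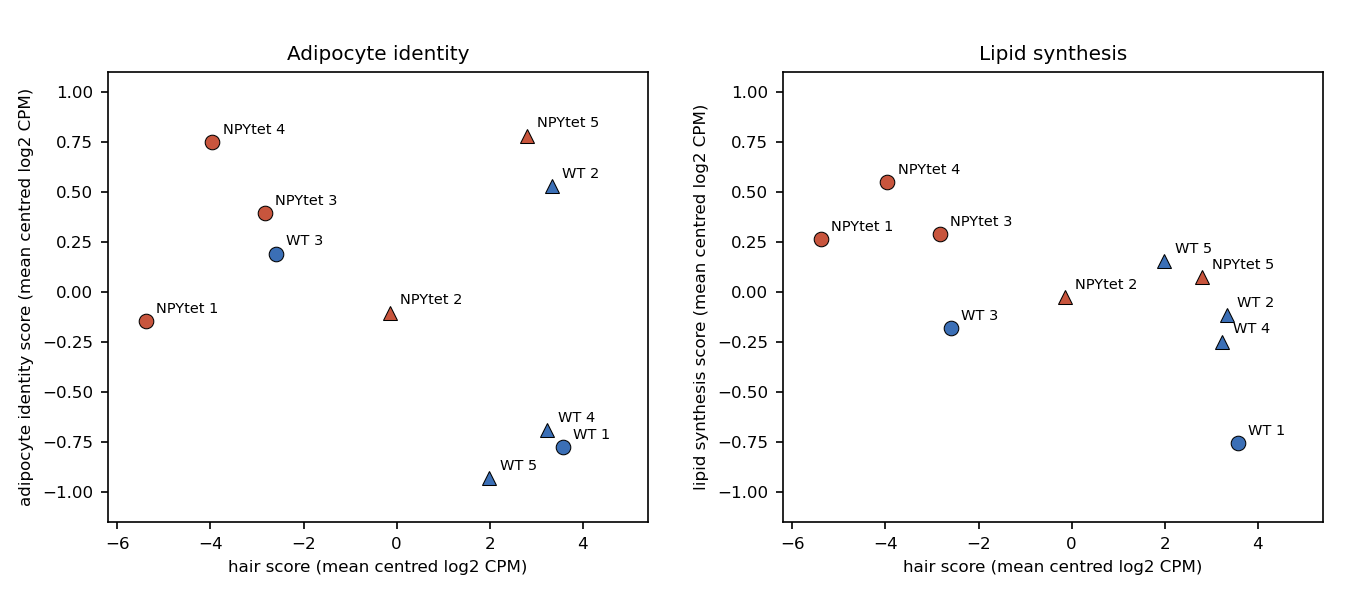
Score of the 19 adipocyte identity genes (left) and the 17 lipid synthesis genes (right) against the hair score, each the mean centred log2 CPM of its list, for 10 libraries (WT blue, NPYtet red, circles labelled female, triangles labelled male). Libraries with a high hair score include identity scores from -0.93 in WT replicate 5 to 0.78 in NPYtet replicate 5, while the lipid synthesis score is highest at 0.55 in NPYtet replicate 4, which has a low hair score.

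The slope on the hair score was then tested with sex and genotype in the fit. None of the 36 members passed in edgeR or DESeq2, while 204 genes, or 1.13%, passed in edgeR (1.11% higher with more hair; 1.11% also without the filter on low counts) and 1.48% in DESeq2. At an unadjusted p under 0.05, 2 of 36 members were lower with more hair (5.56%), against 1.23% of all genes, and 0 were higher, against 3.6% (4.84% in both directions). These were Acacb, at -0.26 (SE 0.10) log2 per unit of score (unadjusted p = 0.0224, adjusted p = 0.809 in edgeR), and Gpam, at -0.24 (SE 0.10, unadjusted p = 0.0267, adjusted p = 0.851). The slope of Gpam was -0.56 without WT replicate 1 and -0.15 without NPYtet replicate 5. The counts at that p depended on the libraries used. Without WT replicate 1, 5 identity genes and 1 lipid synthesis gene were higher (6.44% of all genes), and 1 lipid synthesis gene was lower. Without the 3 libraries that stood apart, 8 identity and 3 lipid synthesis genes were lower and 0 higher, but the share of all genes lower was not counted there. Without NPYtet replicate 1, 0 members were lower and 0 higher. Scd1 was at -0.22 (SE 0.11, unadjusted p = 0.0716). The medians were -0.03 for identity and -0.09 for lipid synthesis genes, and they were 0.39 and 0.01 without WT replicate 1, where 10 genes passed. Slopes were positive in 7 of 19 identity and 4 of 17 lipid synthesis genes (48.7% of all genes). These were 17 and 9 without WT replicate 1 (50.9%), and 0 and 2 without the 3 libraries that stood apart (49.7%). Once the hair score entered the genotype fit, the medians were 0.45 for identity genes, with 16 of 19 positive, and 0.20 for lipid synthesis genes, with 10 of 17 positive. In that fit Retn was at 1.31, Lpl at 1.68, Thrsp at 1.26 and Scd1 at 0.20.

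Between the sexes, 1 of 36 members passed: Dgat1 was higher in libraries labelled male. The background was 448 of 18060 genes, or 2.48% (1.36% higher in male). DESeq2 called 5 members, beside 12.8% of genes, and the fit without a filter on low counts 6, beside 7.24%. Dgat1 averaged 64.7 ± 20.4 CPM in libraries labelled female and 197 ± 125 CPM in male (SD, n = 5 each). Male minus female with genotype in the fit, it had a log2 difference of 1.74 (SE 0.43, edgeR adjusted p = 0.0482). The call was lost with RLE scaling (1.82, edgeR adjusted p = 0.0509), without the 3 libraries that stood apart (1.06, adjusted p = 0.0853) and without any of 7 single libraries (WT replicates 1, 2, 3 and 5, NPYtet replicates 3, 4 and 5, where edgeR adjusted p ran from 0.0699 to 0.143). WT replicate 2 and NPYtet replicate 5, both labelled male, were its highest 2 libraries. The call was kept without NPYtet replicate 1, the library labelled female (1.87, adjusted p = 0.0434). Pck1, at -1.63 (SE 0.41, edgeR adjusted p = 0.0508), and Slc25a1, at 1.33 (SE 0.37, adjusted p = 0.0712), were next. At an unadjusted p under 0.05, 10 of 36 members differed (27.8%), against 24.6% of all genes (13.1% higher, 11.5% lower): Plin4, Cidec, Agpat2, Acacb, Srebf1, Dgat1 and Slc25a1 were higher in male, and Acvr1c, Pck1 and Mlxipl lower. The medians were -0.08 for identity and -0.09 for lipid synthesis genes.

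The genotype difference was compared between the sexes in a fit of the 4 combinations. No gene passed the test of the difference in edgeR (0% of 18060; 294 genes, or 1.63%, at an unadjusted p under 0.05), and DESeq2 called 3 genes (0.0166%), none of them members. Without the filter on low counts 1 lipid synthesis member passed, beside 0.66% of genes. Lipid synthesis genes had a median genotype difference of 0.69 in libraries labelled female (16 of 17 positive) and 0.22 in male (10 of 17 positive), and identity genes 0.52 (19 of 19) and 0.45 (15 of 19). Thrsp was the 1 member with an unadjusted p under 0.05 for the difference between the sexes, where 0.221% of all genes were lower and 1.41% higher. Thrsp had a log2 difference of 3.09 (SE 0.83) in libraries labelled female and 0.22 (SE 0.73) in male, a difference of -2.88 (SE 1.09) with unadjusted p = 0.0199. Hair genes had a median of 6.19 for that difference, with 21 of 31 at an unadjusted p under 0.05. Without NPYtet replicate 1, the library labelled female, the medians of the difference between the sexes were -0.30 for identity and -0.60 for lipid synthesis genes, beside -0.01 and -0.76 with it. The values within each sex all include NPYtet replicate 1 as female and are not given without it.

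GC content moved with the members in some libraries, WT replicate 2 most of all. The Pearson r between a library's deviation in log2 CPM and the GC content of the longest transcript, across 18019 genes, was 0.59 in WT replicate 2, 0.41 in WT replicate 5 and between -0.34 and 0.04 in the other 8; across the 36 members it was 0.77 in WT replicate 2 and 0.10 in NPYtet replicate 5, where it was 0.04 across all genes. Genes are not independent replicates in these values. WT replicate 2 and NPYtet replicate 5, the libraries with the lowest scaling factors, averaged a median of 1.20 log2 above the other 8 libraries in the 18 members of higher GC (15 of 18 positive), and -0.16 in the 18 of lower GC (7 of 18 positive), beside -0.25 over all genes (7581 of 18019 positive). Across the 18019 genes this difference also rose with GC content (r = 0.40), as it did across the 36 members (r = 0.54). The pair is an average of unlike libraries. NPYtet replicate 5 alone had the r of 0.04 and 0.10 given above, so the rise is not shown for it by itself. WT replicate 5, at 0.41, was among the other 8. Among members, Cidec (2.28), Dgat1 (2.13), Agpat2 (1.69), Slc25a1 (1.67) and Srebf1 (1.65) had the highest differences. Pck1 (-1.43), Scd1 (-1.27) and Scd2 (-1.22) were the lowest. After an offset for GC in each library, chosen after seeing the data, the genotype medians were 0.76 and 0.36, and the sex difference of Dgat1 was 1.27 (edgeR adjusted p = 0.0337).

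**Figure D5:**
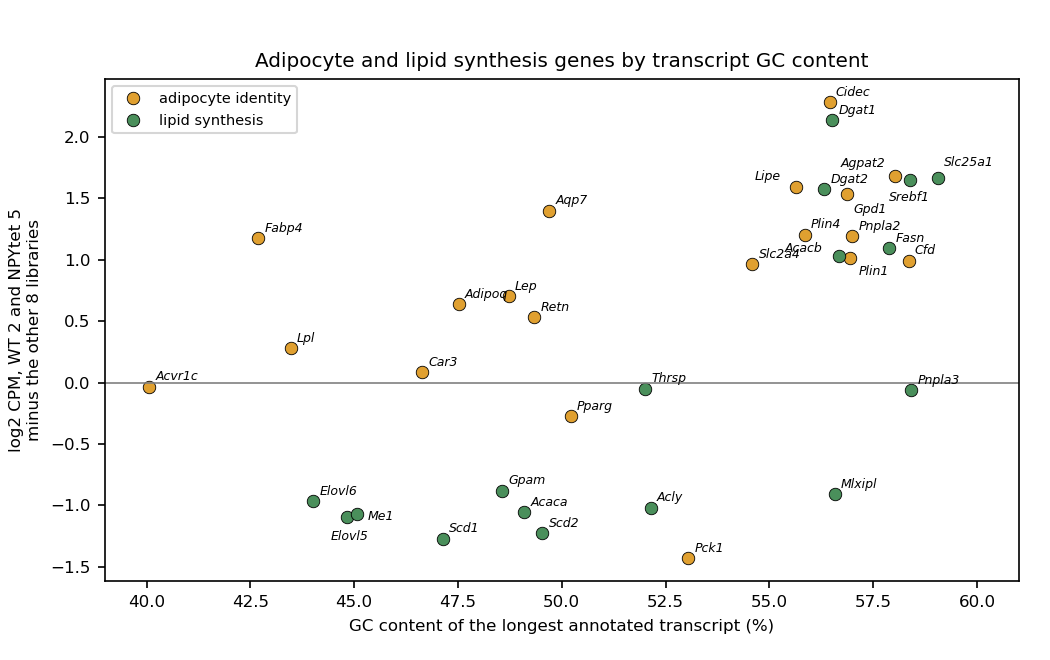
Mean log2 CPM of WT replicate 2 and NPYtet replicate 5 minus that of the other 8 libraries, for each of the 36 genes, against the GC content of its longest annotated transcript in percent (orange identity, green lipid synthesis). The 18 members of higher GC lie mostly above 0, with a median of 1.20, and the 18 of lower GC mostly under 0, with a median of -0.16. Across the 36 genes, r with GC content was 0.77 in WT replicate 2 alone and 0.10 in NPYtet replicate 5 alone.

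Other genes of the same pathways were taken from companion lists. Of 24 other fat cell genes, 21 had positive genotype values (median 0.39), 4 were higher at an unadjusted p under 0.05 and 0 passed in edgeR. The 3 with the highest mean CPM, not scaled by length, were Mgll, which ends triglyceride breakdown, at 0.53 (SE 0.39), the caveolar protein Cavin1 at -0.03 (SE 0.38) and the adipogenic factor Cebpa at 0.47 (SE 0.45). Between the sexes, Cebpb was higher in male at 1.78 (SE 0.37, edgeR adjusted p = 0.0281), and Adrb3, the adrenergic receptor of fat, lower at -2.21 (SE 0.42, adjusted p = 0.0172). Of 25 other lipid synthesis genes, 14 were positive (median 0.09), 0 passed and 0 had an unadjusted p under 0.05. They were led by the elongase Elovl1 at 0.29 (SE 0.36) and the pentose phosphate enzymes Tkt at -0.06 (SE 0.39) and Taldo1 at -0.08 (SE 0.29). Their score had r = 0.43 with that of the member lipid synthesis genes over 10 libraries (0.73 within WT and -0.53 within NPYtet) and r = 0.90 with the keratinocyte score. The keratinocyte score had r = 0.55 with the member lipid synthesis score (0.94 within WT and -0.54 within NPYtet), or -0.14 without WT replicates 1 and 5. The score of other fat cell genes had r = 0.95 with the identity score.

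Markers of other cell types that share these genes were measured beside them, and their part in the member values was not tested. Skeletal muscle genes summed to 4888 to 14427 CPM in WT and 5956 to 11324 CPM in NPYtet, with 4 of 14 positive by genotype (median -0.22). The muscle score had r = 0.64 (rho 0.67) with the identity score and 0.06 with the lipid synthesis score, and Car3 was the identity gene most like muscle, at r = 0.75. With the muscle score as a covariate, 18 of 19 identity genes stayed positive and Retn was at 1.43. Sebaceous gland genes summed to 1869 to 5035 CPM in WT and 2176 to 3051 CPM in NPYtet, with 10 of 14 positive (median 0.20), and their score had r = 0.53 with the lipid synthesis score, or 0.05 without WT replicates 1 and 4. Of 10 thermogenic adipocyte genes, 8 were tested and 7 were positive (median 0.38). Mammary epithelium had 7 of 10 genes tested and 5 positive (median 0.36), with 2 higher and 1 lower at an unadjusted p under 0.05. Its score was 0.42, -0.13, -0.34, 0.12 and -0.12 in WT replicates 1 to 5, and -1.74, -0.67, 0.74, 0.95 and 0.77 in NPYtet replicates 1 to 5, so NPYtet replicates 3, 4 and 5, the libraries highest in Retn, Adipoq, Lpl and Pparg, were also its highest 3. Within WT the mammary scores ran over a narrower range (-0.34 to 0.42) than in NPYtet (-1.74 to 0.95), and their order did not follow that of these genes. WT replicate 3, the highest WT library for Retn, Adipoq, Lpl and Pparg, had the lowest WT mammary score (-0.34). WT replicate 1, the lowest in Retn and Adipoq, had the highest (0.42). Of the milk protein genes in the mammary list, Csn2 and Wap had 0 reads in all 10 libraries, Lalba at most 5 and Csn3 at most 284. Precursor, keratinocyte, endothelial and macrophage lists had 9 of 10, 4 of 8, 8 of 8 and 7 of 9 positive, with medians of 0.14, 0.02, 0.34 and 0.05.

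Genotype values of the 3 genes with the highest mean CPM in each of these lists are given as log2 differences. They were Acta1 (-0.14), Atp2a1 (-0.31) and Tnnt3 (0.04) for muscle, Krt79 (-0.63), Fa2h (0.35) and Acsbg1 (-0.06) for sebaceous gland and Cidea (0.22), Pdk4 (-0.35) and Cox8b (0.80) for thermogenic adipocytes. For mammary epithelium they were Prlr (0.85), Esr1 (0.59) and Elf5 (-1.33), for adipocyte precursors Fabp5 (-0.05), Ly6a (0.21) and Cd34 (0.13) and for keratinocytes Krt14 (-0.02), Krt5 (-0.20) and Krt10 (-0.12). Endothelium gave Pecam1 (0.07), Egfl7 (0.34) and Cdh5 (0.31), macrophages C1qb (0.04), Csf1r (0.06) and C1qa (-0.04) and hair Krt71 (-5.07), Tchh (-4.04) and Krt27 (-4.74). None passed for genotype in edgeR. Between the sexes, the fatty acid carrier Fabp5 (1.87, SE 0.33, edgeR adjusted p = 0.0130) and the basal keratin Krt14 (2.79, SE 0.54, adjusted p = 0.0197) were higher in male. With more hair, Krt71, Tchh and Krt27, which are in the hair score itself, and Elf5 (0.48, SE 0.08 per unit of score, adjusted p = 0.00198) were higher.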

How the data were processed

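RNA of whole skin in 10 samples was converted to libraries with a poly(A), directional kit, per the labels' protocols. The authors deposited raw read counts per gene, 1 table per library. The submitters' processing notes name FastQC 0.11.8, Trimmomatic 0.36, STAR 2.5.2, DESeq2 1.30.1 and the genome build mm10, without their settings, strand choice or annotation release (not given in the sources used here). Of 49671 gene IDs, 49412 matched a symbol, and the 259 others held 0.019% of reads.

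The tests were those of edgeR 4.0.16 under R 4.3.3 (TMM scaling, filterByExpr with min.count 10 and min.total.count 15 against low counts, quasi-likelihood test with robust spread, sex and genotype as terms, Benjamini-Hochberg adjustment over all 18060 genes, threshold 0.05). Library totals of 23209405 to 53357695 reads set the counting precision. All 10 libraries entered each fit unless a left-out library is named. Log2 CPM used a prior count of 2. DESeq2 1.42.0 and limma 3.58.1 (voom with quality weights), other scalings and filters, covariates and left-out libraries were alternatives. The members were chosen with earlier results of these data known, and so were the companion and marker lists. The genes named are all 36 members, the 3 genes of highest mean CPM in each companion and other cell type list, and companion genes that passed a test. Xist, Ddx3y, Ucp1 and the milk protein genes were named as checks of labels and cell types. On simulated data for the genotype comparison with 18060 genes, 2 of 50 genes changed 2-fold were recovered, 37 of 50 changed 4-fold, 48 of 50 changed 8-fold and 49 of 50 changed 32-fold, with 6 false calls. All changed genes were in the same simulated set, drawn gene by gene without differences by sex or hair growth. The large changes in that set make the adjusted threshold easier to pass, so recovery in the real data may be lower. No pair of libraries in a group agreed within sampling noise. NPYtet replicates 3 and 4 were the most alike, with a chi-squared of 27.9 per degree of freedom, and the other pairs had 108 to 822. These are 2 of the 3 NPYtet libraries that lay above every WT library for Retn, Adipoq, Lpl and Pparg.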

Additional observations from a re-analysis of the deposited data

Results flagged for a closer look

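In groups of 5 libraries, a member or score was singled out when its highest or lowest library lay far from the next one relative to the whole range of the group (a gap above 0.71 of the range). Of 80 such groups 6 met this, and chance gives about 1 in 20. Plin4 was at a log2 CPM of 9.67 in WT replicate 2, and the next library was at 7.43. In NPYtet replicate 5, Agpat2 was at a log2 CPM of 7.13 (next 5.76), Srebf1 at 9.33 (next 7.82) and Slc25a1 at 8.69 (next 7.31), each the highest of its group, and Acly was at 6.93, the lowest (next 8.26). The hair score of WT replicate 3 was -2.60, and the next WT library was at 1.99.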

How the results depend on the processing

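Over 68 results and 1335 alternative values, 1213 were counted as the same. For a single gene this meant the same sign and the same side of the threshold. For a list median it meant a shift smaller than the pooled SD of the list score (scaled to the hair score for the hair slope). For a number of genes passing it meant a change within a set ratio. Sign changes were counted for single genes only: 39 values changed sign, and 22 of 36 members never did so for genotype. Some list medians changed sign too: that of identity genes for sex ran from -0.44 to 0.13. The list medians for genotype ran over leave-one-out fits from 0.44 to 0.99 for identity and from 0.28 to 0.50 for lipid synthesis genes. For values that changed, the cause was not tested.

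Genotype values changed sign without a sex term for Plin4 (-0.11), Pnpla2 (-0.0941), Pck1 (0.44), Acacb (-0.33) and Mlxipl (0.27). They did so with the hair score as covariate for Plin4 (-0.11), Pnpla2 (-0.19), Acaca (-0.0387), Acacb (-0.61), Acly (-0.38), Elovl5 (-0.0590) and Gpam (-0.65), and with limma voom for Pck1 (0.36), Acacb (-0.00650), Scd2 (0.13) and Mlxipl (0.34). The identity covariate turned Scd2 (0.33) and Pnpla3 (-0.0109), the muscle covariate Mlxipl (0.0840), the GC offset Mlxipl (0.0690), and leaving out the 3 libraries that stood apart Pck1 (0.35) and Mlxipl (0.57). Leaving out 1 library each gave Lipe -0.00613 to 0.73, Pnpla2 -0.14 to 0.60, Slc2a4 -0.10 to 0.58, Pck1 -0.44 to 0.24, Aqp7 -0.00732 to 0.80, Acacb -0.19 to 0.43, Scd2 -0.56 to 0.0475, Mlxipl -0.34 to 0.24 and Gpam -0.0773 to 0.58.

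Genes passing for genotype numbered 1 in edgeR, 35 in DESeq2, 2 in limma voom, 409 without a filter on low counts (1 identity member, Retn, at 1.32 with edgeR adjusted p = 0.0232, and 1 lipid synthesis member, Thrsp, at 1.62 with adjusted p = 0.0174), 0 without the 3 libraries, and 1 to 8 leaving out 1 library. For sex there were 2316 in DESeq2, 2380 without a filter, 949 without the 3 libraries, 1080 with the GC offset and 58 to 2725 leaving out 1 library. Identity members passing for sex then numbered 2, 2, 2, 1 and 0 to 2, and lipid synthesis members 3, 4, 2, 2 and 0 to 3, with 0 under RLE scaling. The lipid synthesis median for sex was 0.22 with the GC offset. For the difference between the sexes 3 genes passed in DESeq2, 217 without a filter (1 lipid synthesis member) and 0 to 108 leaving out 1 library, where medians ran from -0.79 to 0.60 (identity) and -1.04 to -0.45 (lipid synthesis). For the hair slope 366 genes passed without a filter and 10 to 227 leaving out 1 library, where medians ran from -0.10 to 0.39 and from -0.14 to 0.00511.

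Replicate numbers are shared between the genotypes, and same-numbered libraries deviated together with r of -0.26, 0.30, 0.64, 0.09 and 0.08, so the numbers were not taken as pairs. With the replicate number as a block, 1 gene passed for genotype, the medians were 0.55 and 0.36, Scd2 was at 0.0526 and Gpam at -0.0211, and no WT library correlated best with its own number.

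At this number and depth of libraries, 2 of 50 simulated 2-fold changes were recovered for genotype, in a set that also held larger changes.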
